A study of Mus musculus with 6 samples.

Results

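Metallothioneins are small, cysteine-rich proteins that bind zinc and copper, and 5 genes of zinc handling were followed here in the stromal vascular cells of mouse inguinal white adipose tissue (iWAT), the subcutaneous fat depot that forms beige adipocytes in the cold. The genes were Mt1 and Mt2 (the metallothioneins), Mtf1 (their transcription factor), Slc30a1 (a zinc exporter) and Slc39a14 (a zinc importer), taken by gene symbol, and all 5 were among the 31053 genes counted. The tissue came from C57BL/6 mice that were 9 weeks (Young) or 57 weeks (Aged) old. All mice were first kept for 3 weeks at 30 °C, which is thermoneutral for mice (TN), and then either stayed there or spent 3 days (3D cold) or 14 days (14D cold) at 6 °C. Dissociated cells were depleted of CD45+ immune cells and profiled by droplet-based single-cell RNA sequencing, with 1 library for each age and temperature, so that 6 libraries were compared. Per the study's methods the mice were male and came from 2 suppliers, as C57BL/6JN or C57BL/6J animals. The labels do not give the number of mice behind each library, while the study's methods describe stromal vascular cells as kept separate by mouse except where they say otherwise, and name no pooling of mice for these libraries. A p-value below therefore measures the spread between libraries that differ in age or temperature, since no age and temperature has a second library.

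Free zinc in the cell activates MTF1, which binds short DNA motifs called metal response elements and switches on Mt1, Mt2 and Slc30a1. The metallothioneins then hold the metal, while the SLC30A1 protein (ZnT1) at the plasma membrane moves zinc out of the cell, and SLC39A14 (ZIP14) brings zinc and also iron and manganese in. Mt1 and Mt2 are also known to respond to glucocorticoids, cytokines and oxidative stress, and SLC39A14 to interleukin-6.

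Mt1 and Mt2 lie on the same strand of chromosome 8 with 5513 bases between them: Mt2 at chr8:94172664-94173568 and Mt1 at chr8:94179082-94180327, both on the plus strand (GRCm38, GENCODE M21). Their protein-coding parts are joined from 3 exons each and have the same length, 186 bases, of which 38 differ (79.6% match). They are printed here because the comparison of the 2 metallothioneins below depends on reads being told apart between them. The longest run of bases that their transcripts share is 20, and after the stop codon it is 10. Capitals mark the bases that differ between the genes.
Mt1 coding sequence, chr8:94179311-94180193, plus strand: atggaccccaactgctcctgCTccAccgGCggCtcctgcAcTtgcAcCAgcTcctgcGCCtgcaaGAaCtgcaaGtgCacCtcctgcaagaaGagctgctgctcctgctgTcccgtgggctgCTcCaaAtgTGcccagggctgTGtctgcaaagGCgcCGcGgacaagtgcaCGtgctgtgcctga
Mt2 coding sequence, chr8:94172848-94173427, plus strand: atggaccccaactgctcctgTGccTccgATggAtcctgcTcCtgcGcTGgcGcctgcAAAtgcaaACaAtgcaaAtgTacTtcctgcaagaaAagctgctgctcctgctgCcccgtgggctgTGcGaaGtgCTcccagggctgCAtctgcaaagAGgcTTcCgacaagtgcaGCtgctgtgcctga

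The core of a metal response element was searched as TGCACNC and TGCGCNC on both strands, with no overlapping matches, in RefSeq promoter windows of 250 bases before and 50 bases after each transcript start (GRCm38). A window was at hand for 4 of the 5 genes. The Mt2 window held 4 cores, at -223, -128, -50 and 5 bases from the start. That RefSeq start, chr8:94172618, lies before the GENCODE start of Mt2 at chr8:94172664, and so does the core at 5. In the Mt1 window there were 3, at -23, 3 and 21, although 2 other annotated Mt1 transcripts start 122 and 152 bases further on. All 3 cores thus lie before those 2 starts. The window ends 50 bases after the RefSeq start, so the bases just before the 2 later starts were not searched. Slc30a1 had 2, at -43 and 31, and Mtf1 had 0. Of all 32544 promoter windows, 25.9% held at least 1 core, 7.17% at least 2 and 1.99% at least 3. The stretches just before the RefSeq start, and for Mt1 and Mt2 the first 30 bases after it, are shown with the cores in capitals. They are shown for the 3 genes that MTF1 is known to switch on, and need not hold all the sites it binds. A core read on the minus strand appears as its reverse complement.
Mt1 before the start, chr8:94178969-94179088, plus strand: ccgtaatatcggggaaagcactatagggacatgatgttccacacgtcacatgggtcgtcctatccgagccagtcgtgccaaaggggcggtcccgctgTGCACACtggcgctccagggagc
Mt1 from the start, chr8:94179089-94179118, plus strand: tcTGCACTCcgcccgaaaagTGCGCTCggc
Mt2 before the start, chr8:94172498-94172617, plus strand: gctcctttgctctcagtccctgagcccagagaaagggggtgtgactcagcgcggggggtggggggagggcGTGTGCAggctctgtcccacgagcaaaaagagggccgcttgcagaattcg
Mt2 from the start, chr8:94172618-94172647, plus strand: ggtcGTGCGCAggcccaggggcgtgtgctg
Slc30a1 before the start, chr1:191906661-191906780, plus strand: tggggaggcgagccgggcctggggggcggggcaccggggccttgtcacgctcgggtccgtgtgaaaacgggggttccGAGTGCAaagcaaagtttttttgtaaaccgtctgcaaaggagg
A match to the core letters is a description of the window, and no binding was measured. Mtf1 lies at chr4:124802104-124849800 (plus strand), Slc30a1 at chr1:191906767-191913247 (plus strand) and Slc39a14 at chr14:70303469-70351425 (minus strand).

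Libraries held 52068837 to 88508349 unique molecular identifiers (UMIs, each standing for 1 captured RNA molecule), and 57326 of 68103 cell barcodes passed the filters. The Aged 14D cold library stood apart by depth, with a median of 2741.5 UMIs per cell against 6726 to 9904 in the other 5 libraries and 36.5% of its cells under 2000 UMIs. Pairs of libraries shared 18 to 35 barcodes. Cells were sorted into classes by counts of marker genes, none of which is 1 of the 5 genes: 19758 Dpp4+ fibroblast-like cells (34.5% of cells kept), 15912 Icam1+ preadipocyte-like cells (27.8%), 4862 Cd142+ fibroblast-like cells (8.48%), 4168 endothelial-like cells and 1155 smooth muscle or pericyte-like cells (SMC/pericyte-like below). A further 8052 fibroblasts lay between the 3 fibroblast classes and were put in none. Of markers kept out of the gates, 3 of 3 were highest in their own class for Dpp4+, endothelial-like and SMC/pericyte-like cells, but 1 of 3 for Icam1+ cells and 1 of 2 for Cd142+ cells (2 of 3 and 2 of 2 among the fibroblast classes alone). Levels are given as CPM, the UMIs of a gene per 1000000 UMIs of that class in that library.

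Mt1 was highest in Icam1+ preadipocyte-like and Cd142+ fibroblast-like cells. In Icam1+ cells it was at 5470, 7267 and 5477 CPM in the Young TN, 3D cold and 14D cold libraries and at 4649, 8820 and 6313 CPM in the Aged ones (6333 ± 1508, SD, n = 6). In Cd142+ cells the same libraries gave 5022, 6750 and 5065 CPM (Young) and 5781, 8395 and 6144 CPM (Aged; 6193 ± 1263, n = 6). In Dpp4+ cells, which express the marker of the multipotent interstitial progenitors, Mt1 was at 2807, 2567 and 2302 CPM (Young) and 2586, 3435 and 2380 CPM (Aged; 2680 ± 410, n = 6). Every library of Icam1+ and of Cd142+ cells thus lay above every library of Dpp4+ cells. SMC/pericyte-like cells had 3605, 2767 and 2578 CPM (Young) and 4564, 5364 and 4421 CPM (Aged). Endothelial-like cells had the least, 842, 605 and 665 CPM (Young) and 701, 990 and 1808 CPM (Aged), and their highest library was the shallow Aged 14D cold one.

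**Figure D1:**
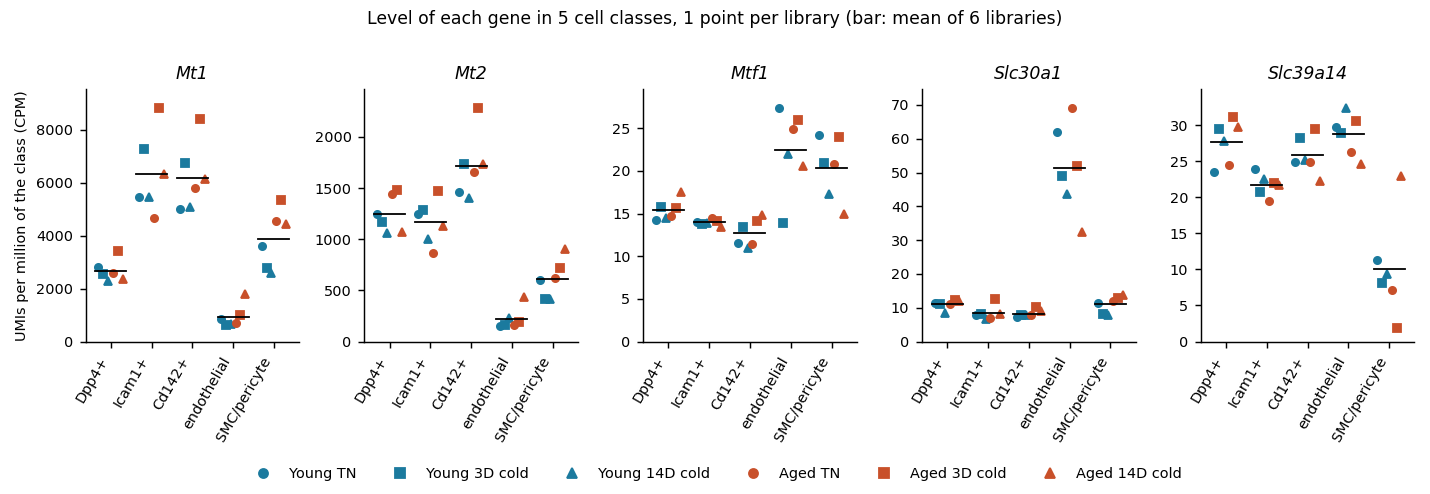
Level of each gene (CPM, linear axis from 0, 1 panel per gene) in the 5 cell classes, with 1 point per library coloured by age and shaped by temperature and a bar at the mean of 6 libraries. Mt1 was highest in Icam1+ and Cd142+ cells (means 6333 and 6193 CPM), and Slc30a1 in endothelial-like cells (mean 51.3 CPM).

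Against Dpp4+ cells of the same library, Mt1 was higher in Icam1+ cells by 1.28 on the log2 scale (SE 0.10, adjusted p = 2.24e-06, edgeR quasi-likelihood test with library as block) and in Cd142+ cells by 1.27 (SE 0.07, adjusted p = 1.69e-08). It was lower in endothelial-like cells (log2 fold change -1.88, SE 0.20, adjusted p = 1.33e-05). In SMC/pericyte-like cells its log2 difference was 0.18 (SE 0.12, adjusted p = 0.249, 95% interval -0.09 to 0.44) after TMM scaling. Scaling by plain totals gave Mt1 a log2 difference of 0.50 there (adjusted p = 7.98e-04), while moving the median of all genes by 0.28. Icam1+ and Cd142+ cells stood next to each other in the order of Mt1 levels and were not told apart (mean log2 difference 0.02, 5 of 6 libraries higher in Icam1+, exact sign-flip permutation p = 0.8125). The steps from Cd142+ to SMC/pericyte-like, on to Dpp4+ and on to endothelial-like cells each went down in 6 of 6 libraries (exact permutation p = 0.03125, the smallest that 6 libraries allow, adjusted p = 0.0694 over 20 such comparisons of the 5 genes).

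Mt2 followed another order. It was highest in Cd142+ cells, with 1458, 1731 and 1407 CPM in the Young TN, 3D cold and 14D cold libraries and 1657, 2282 and 1731 CPM in the Aged ones. Dpp4+ cells had 1251, 1166 and 1058 CPM (Young) and 1439, 1484 and 1074 CPM (Aged). Icam1+ cells, with more Mt1 than Dpp4+ cells in 6 of 6 libraries, had Mt2 at 1248, 1287 and 1004 CPM (Young) and 861, 1475 and 1130 CPM (Aged), below Dpp4+ cells in 4 of 6. The Mt2 difference of Icam1+ from Dpp4+ cells was -0.04 on the log2 scale (SE 0.11, adjusted p = 0.743, edgeR, 95% interval -0.29 to 0.20), and that of Cd142+ cells was 0.52 (SE 0.07, adjusted p = 5.10e-05). Mt2 was lower in SMC/pericyte-like cells (log2 fold change -1.39, SE 0.15, adjusted p = 6.33e-07), at 411 to 907 CPM, and lowest in endothelial-like cells (-2.85, SE 0.24, adjusted p = 1.88e-06), at 155 to 431 CPM. Without the Aged 14D cold library the endothelial differences were -2.12 for Mt1 and -3.11 for Mt2.

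The balance of the 2 metallothioneins therefore differed between the classes. Dpp4+ cells had 1.80 to 2.31 Mt1 UMIs per Mt2 UMI over the 6 libraries, Cd142+ cells 3.45 to 3.90, Icam1+ cells 4.38 to 5.98, endothelial-like cells 2.87 to 5.43 and SMC/pericyte-like cells 4.88 to 7.49. Each of these 4 classes was above Dpp4+ cells in 6 of 6 libraries (exact sign-flip permutation p = 0.03125 for each class, adjusted p = 0.03125 over 4 classes, the smallest possible). In Icam1+ cells the ratio was 1.95 to 3.00 times that of Dpp4+ cells, in Cd142+ cells 1.54 to 1.94 times, in endothelial-like cells 1.32 to 2.42 times and in SMC/pericyte-like cells 2.20 to 4.12 times. No difference of the ratio between the ages passed (exact permutation p from 0.5 to 1 over the 5 classes, where 3 libraries against 3 cannot go below 0.1). UMIs counted at transcript ends do not scale with transcript length but do depend on how well each end is captured, so the ratio is compared between classes and is not read as molecules of 1 protein per the other.

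**Figure D2:**
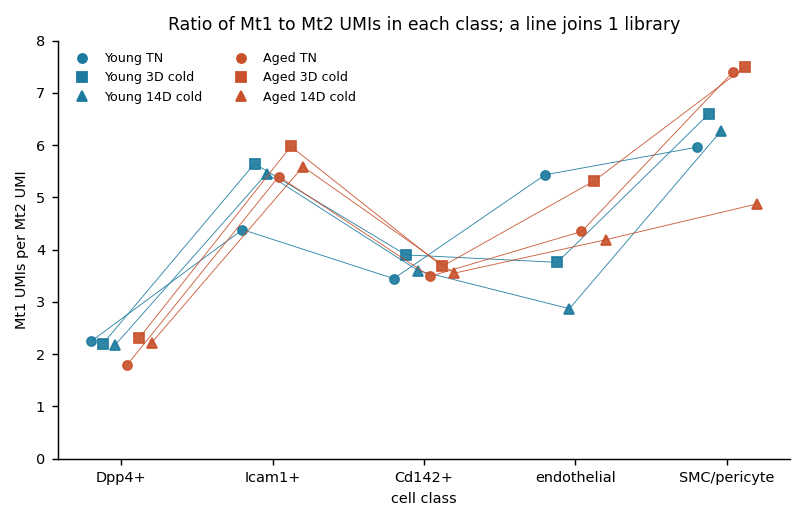
Mt1 UMIs per Mt2 UMI (linear axis from 0) in each of the 5 cell classes, with a line joining the classes of 1 library. All 6 libraries had their lowest ratio, 1.80 to 2.31, in Dpp4+ cells.

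Slc30a1, the zinc exporter, was highest in endothelial-like cells, where the metallothioneins were lowest. These cells had 61.9, 49.1 and 43.6 CPM in the Young TN, 3D cold and 14D cold libraries and 69.1, 52.0 and 32.4 CPM in the Aged ones, from 71 to 316 UMIs per library. The other classes had means of 11.1 CPM (Dpp4+), 11.0 CPM (SMC/pericyte-like), 8.41 CPM (Icam1+) and 8.29 CPM (Cd142+), and no library of theirs reached an endothelial value. Slc30a1 was higher in endothelial-like than in Dpp4+ cells by 1.95 on the log2 scale (SE 0.13, adjusted p = 3.48e-07, edgeR) and lower in Icam1+ cells (-0.35, SE 0.10, adjusted p = 0.00864) and Cd142+ cells (-0.34, SE 0.09, adjusted p = 0.00726). In SMC/pericyte-like cells it rested on 5 to 15 UMIs per library, and its log2 difference of -0.31 did not pass (SE 0.20, adjusted p = 0.1996).

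Slc39a14, the importer, was close to even across the fibroblast and endothelial classes, with means of 27.7 CPM (Dpp4+), 25.8 CPM (Cd142+), 21.7 CPM (Icam1+) and 28.8 CPM (endothelial-like). SMC/pericyte-like cells had 11.3, 8.07 and 9.32 CPM (Young) and 7.20, 1.84 and 23.0 CPM (Aged), from 1 to 20 UMIs per library. Slc39a14 was lower there than in Dpp4+ cells by edgeR (log2 fold change -1.72, SE 0.25, adjusted p = 2.44e-05), and less so in Icam1+ cells (-0.29, SE 0.07, adjusted p = 0.00331). In endothelial-like cells Slc39a14 differed by -0.20 (SE 0.08, adjusted p = 0.0490) after TMM scaling and by 0.06 with plain totals, so its direction there depended on the scaling. Mtf1 had means of 12.7 to 22.5 CPM in the 5 classes, and passed only in Cd142+ cells (-0.21, SE 0.07, adjusted p = 0.0300, edgeR). That call was kept with the Aged 3D or 14D cold library left out (adjusted p = 0.0243 and 0.0467), and lost with any other library left out (0.0535 to 0.0903), a stricter gate (0.176) or thinned cells (0.0854). In endothelial-like cells Mtf1 was at 0.30 (adjusted p = 0.0677), and passed with the Young 3D cold (0.00917) or the Aged 14D cold library (0.0423) left out and with plain totals (0.00412). Counted over the 5 genes, 3 differed from Dpp4+ cells in Icam1+ cells, 4 in Cd142+ cells, 4 in endothelial-like cells and 2 in SMC/pericyte-like cells. These counts stand beside 68.3%, 55.0%, 74.3% and 55.6% of all genes tested in the same comparisons, so that a difference between classes was the rule for most genes.

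**Figure D3:**
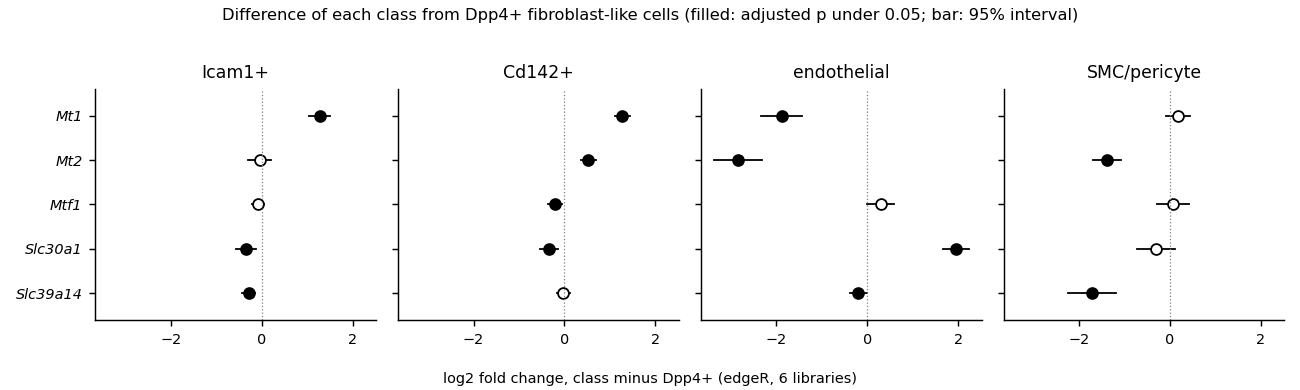
Log2 fold change of each gene in 4 classes against Dpp4+ cells (edgeR, 6 libraries), with the 95% interval as a bar and filled points where the adjusted p was under 0.05. In endothelial-like cells Mt1 and Mt2 lay at -1.88 and -2.85 and Slc30a1 at 1.95.

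The genes of the same families behaved as follows. Over all genes tested, 68.3% differed from Dpp4+ cells in Icam1+ cells, 74.3% in endothelial-like cells and 55.6% in SMC/pericyte-like cells, in either direction. The counts of genes below are to be read beside these shares. Mt3 and Mt4, the other mouse metallothioneins, summed to at most 1.61 CPM in any class and library. Of the 13 other Slc39 importers, 9 were tested in Icam1+ cells, and 5 were higher and 3 lower than in Dpp4+ cells. In SMC/pericyte-like cells 7 of 9 tested were lower, with Slc39a11 at -1.65 and Slc39a6 at -1.30. In endothelial-like cells 3 of 10 were higher, with Slc39a4 at 6.71 (SE 0.60, adjusted p = 7.06e-06, edgeR) and Slc39a8 at 1.14, and 6 were lower, with Slc39a6 at -2.36. Slc39a4, an importer best known from the intestine, rested on 40 UMIs in endothelial-like cells (0 to 13 per library) against 2 in Dpp4+ cells, a CPM ratio of 197 with an exact 95% interval of 51.1 to 1684 that covers counting error only. SLC39A8 is the importer closest in sequence to SLC39A14. Of the 9 other Slc30 exporters, 5 were tested in each class, and 3 were lower in endothelial-like cells (Slc30a7 at -0.66) and 3 in SMC/pericyte-like cells (Slc30a4 at -1.18), with 0 higher in either, while Slc30a1 itself was higher in endothelial-like cells. Of 10 genes of iron handling tested in Icam1+ cells, 4 were higher than in Dpp4+ cells, led by Steap4, a metalloreductase (4.85), and 4 lower, led by Hmox1, which breaks down heme (-0.64). Of 8 copper genes tested in the same cells 3 were higher, led by Slc31a1, the copper importer (1.26), and 3 lower, led by Slc31a2 (-1.18).

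Mt1 was also spread unevenly among the cells of a class. With each cell thinned to 2000 UMIs, the median cell held 3 to 4 Mt1 UMIs in Dpp4+ cells, 7 to 16 in Icam1+ cells, 9 to 14 in Cd142+ cells, 2 to 7 in SMC/pericyte-like cells and 0 to 1 in endothelial-like cells, over the 6 libraries. The 10% of endothelial-like cells with most Mt1 held 50.7 to 72.8% of the Mt1 UMIs of their class, against 23.0 to 28.4% in Icam1+ cells. Few UMIs per cell raise such a share by sampling alone, so the gap between these classes is not read as a difference in unevenness. Across the cells of a library and class, Mt1 and Mt2 correlated with Pearson's r of 0.35 to 0.65, a description over cells that share a library. Split by markers chosen after the values were seen and with no test, 3398 endothelial-like cells with capillary markers had 360 to 1089 CPM of Mt1 and 241 with arterial markers had 1467 to 5132 CPM. For Slc30a1 the same cells had 37.4 to 65.1 CPM (capillary) and 25.5 to 121 CPM (arterial).

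By the share of cells with at least 1 UMI, Icam1+ and Cd142+ cells were again the highest in Mt1 and endothelial-like cells the lowest. Dpp4+ cells stood above SMC/pericyte-like cells by share but below them in CPM, so no order of these 2 classes is read from the shares. For Mt1, thinned Young and Aged libraries had 86.6 and 88.6% of Dpp4+ cells, 98.0 and 98.0% of Icam1+ cells, 96.7 and 98.5% of Cd142+ cells, 38.0 and 45.4% of endothelial-like cells and 75.5 and 86.1% of SMC/pericyte-like cells (means of 3 libraries). For Mt2 the largest gap between the ages was in SMC/pericyte-like cells, 36.1 ± 4.85% (Young, SD, n = 3) against 52.9 ± 13.0% (Aged, n = 3), an exact permutation p of 0.1 that is the smallest 3 against 3 allows (adjusted p = 0.556 over 25 tests). Unthinned, the Mt2 shares there were 56.3 and 61.2%. No class among the 5 is known to lack Mt1, so a background share from free RNA could not be set from another class.

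The first question of the design is whether the genes differed between ages. Mt2 in Cd142+ fibroblast-like cells was the class result that passed: 1458, 1731 and 1407 CPM in Young against 1657, 2282 and 1731 CPM in Aged libraries at TN, 3D cold and 14D cold. It was higher in Aged libraries at each of the 3 temperatures (log2 ratios 0.18, 0.40 and 0.30), although the highest Young value lay above the lowest Aged one. The fitted log2 fold change was 0.30 (SE 0.09, adjusted p = 0.0390, edgeR with temperature as a term; 0.0421 by DESeq2). Leaving out 1 library moved Mt2 in Cd142+ cells between 0.22 and 0.36, and the adjusted p rose to 0.260 with the Young 3D cold and 0.106 with the Young 14D cold library left out. For the Aged 3D and 14D cold libraries left out it was 0.276 and 0.110. Mt1 in the same cells differed by 0.27 (SE 0.09, adjusted p = 0.0734) and was higher in Aged at 3 of 3 temperatures.

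Beside this Mt2 result stand other values of the Cd142+ cells. The summed fibroblast gate markers, which include collagens, were at 90454 to 98820 CPM in Young and 62500 to 73171 CPM in Aged cells of the class. Summed macrophage RNA was at 13.5 to 18.6 CPM (Young) and 17.0 to 41.0 CPM (Aged), and adipocyte RNA at 58.5 to 70.8 and 77.3 to 103.6 CPM. Their part in the result was not tested.

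The other fibroblast classes gave no age call. In Dpp4+ cells the Aged minus Young log2 difference was 0.08 for Mt1 (95% interval -0.15 to 0.32) and 0.16 for Mt2 (-0.03 to 0.35). In Icam1+ cells it was 0.10 for Mt1 (-0.21 to 0.40) and -0.04 for Mt2 (-0.37 to 0.29). For Mt1 both intervals include the 0.27 of Cd142+ cells. For Mt2 that of Dpp4+ cells includes 0.30 and that of Icam1+ cells ends just below it. In the test of the age effect against that of Dpp4+ cells, Cd142+ cells differed by 0.15 for Mt2 (95% interval -0.13 to 0.43, adjusted p = 0.711, edgeR), so the Mt2 difference was not shown to be particular to them.

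SMC/pericyte-like cells had the widest gap between ages for Mt1 among the 5 classes. The Young libraries had 3605, 2767 and 2578 CPM and the Aged ones 4564, 5364 and 4421 CPM, so the ages did not overlap. The log2 fold change of Mt1 was 0.76 (SE 0.16, unadjusted p = 3.74e-04 from edgeR) with an adjusted p of 0.102, and DESeq2 gave an adjusted p of 0.0486. Mt2 there was at 605, 419 and 411 CPM (Young) and 617, 716 and 907 CPM (Aged), again without overlap. Its log2 fold change was 0.71 (SE 0.20, adjusted p = 0.263, edgeR). How many of all genes did not overlap between the ages in this class was not counted, so the lack of overlap is a description only. Leaving out Young TN or Aged TN brought the adjusted p of Mt1 to 1.59e-06 and 2.66e-06 with log2 values of 0.96 and 0.96. Without Young 3D cold it was 0.61 (adjusted p = 0.926). These fits have fewer residual degrees of freedom than the 2 of the full fit, so a small p there is not stronger support. Both genes' age effect exceeded that in Dpp4+ cells at an unadjusted edgeR p under 0.05 (Mt1 by 0.69, adjusted p = 0.286, and Mt2 by 0.57, adjusted p = 0.793).

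The class is small, 109 to 348 cells per library, and mixes cell types in proportions that differed between libraries. Cells with smooth muscle markers were 51 of 109, 34 of 122 and 48 of 142 in the Young TN, 3D cold and 14D cold libraries and 167 of 314, 33 of 120 and 250 of 348 in the Aged ones. Those cells, a split made after the values were seen and not tested, had Mt1 at 4040, 3106 and 2612 CPM (Young) and 5202, 6129 and 4709 CPM (Aged). Cells with pericyte markers had Mt1 at 3039, 1629 and 1542 CPM (Young) and 2580, 4126 and 3389 CPM (Aged). Among smooth muscle cells the ages did not overlap in Mt1, and among pericytes they did, again a description only. Summed macrophage RNA in the class was at 11.99 to 25.8 CPM (Young) and 42.4 to 85.2 CPM (Aged), red cell RNA at 1.33 to 20.97 CPM (Young) and 3.69 to 3301 CPM (Aged), and fibroblast gate markers at 18396 to 26266 and 11524 to 26606 CPM, and their part in the Mt1 and Mt2 values was not tested.

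**Figure D4:**
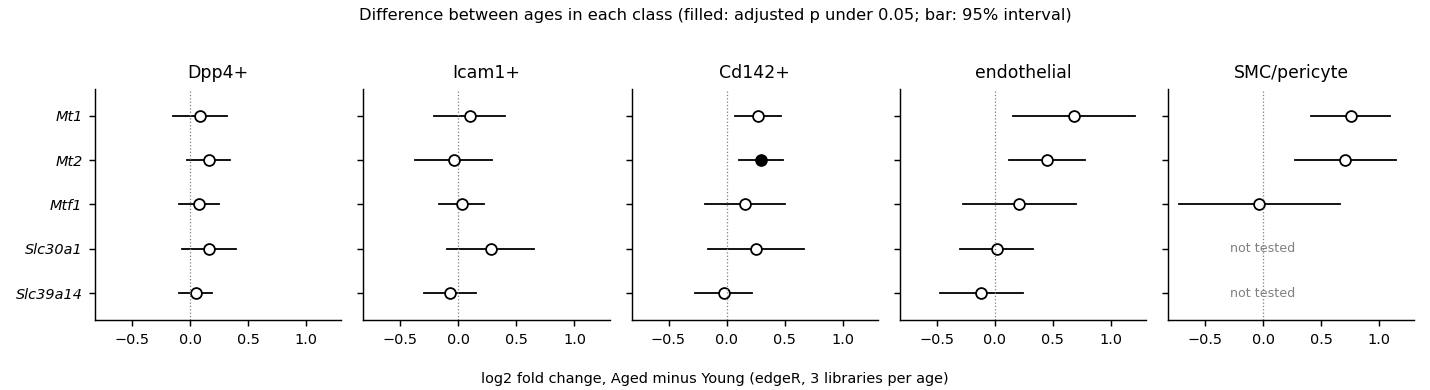
Aged minus Young log2 fold change of each gene in the 5 classes (edgeR, 3 libraries per age), with the 95% interval as a bar and filled points where the adjusted p was under 0.05. Mt2 in Cd142+ cells (0.30) is the filled point, and Slc30a1 and Slc39a14 were too low to test in SMC/pericyte-like cells.

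In endothelial-like cells Mt1 differed between the ages by 0.68 (SE 0.24, adjusted p = 0.256, edgeR) and Mt2 by 0.45 (SE 0.15, adjusted p = 0.223). The Mt1 difference fell to 0.26 without Aged 14D cold and to 0.27 without Young 14D cold, and rose to 1.14 without Young TN (adjusted p = 0.00366) and 1.13 without Aged TN (adjusted p = 0.00204). These fits, too, have fewer residual degrees of freedom than the full one. At TN the Aged library was lower (log2 ratio -0.27), and after 3 and 14 days of cold it was higher (0.71 and 1.44). Slc30a1 did not pass in any class, and its endothelial difference was 0.01 (95% interval -0.30 to 0.33).

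Over all cells kept, Slc30a1 rose with age by 0.28 (SE 0.06, adjusted p = 0.0403, edgeR), from 11.4, 11.4 and 9.46 CPM in Young to 14.3, 13.7 and 12.02 CPM in Aged libraries. In sums over all cells, more cells of a type that is rich in Slc30a1 and more Slc30a1 RNA per cell cannot be told apart. Endothelial-like cells, the class richest in Slc30a1, made up 5.74, 4.21 and 5.43% of cells (Young) and 14.1, 6.15 and 7.97% (Aged). The call for Slc30a1 was lost by DESeq2 (adjusted p = 0.0915), with thinned cells (0.163), and without any 1 library other than Aged TN (adjusted p from 0.0550 to 0.224). Mtf1 and Slc39a14 passed in no class, with Aged minus Young values over all cells of 0.04 for Mtf1 and -0.05 for Slc39a14.

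In all, 1 of the 5 genes passed the age test over all cells, where 10.0% of all genes tested did, and 1 of 5 in Cd142+ cells, where 12% did. By edgeR 0 of 5 passed in Dpp4+ cells (16.5% of all genes), 0 of 5 in Icam1+ cells (11.9%), 0 of 5 in endothelial-like cells (0.746%) and 0 of 3 tested in SMC/pericyte-like cells (0.152%). At an unadjusted p under 0.05 these counts of 0 became 0, 0, 2 and 2, and with DESeq2 they became 0, 0, 0 and 1. Over all genes the unadjusted counts were 3931 of 13123 (Dpp4+), 3551 of 13057 (Icam1+), 1361 of 10450 (endothelial-like) and 741 of 7887 (SMC/pericyte-like). The median difference of the 5 genes was 0.25 in Cd142+ cells against 0.00157 over all genes, and 0.08 in Dpp4+ cells against 4.97e-04. For the age effect of each class against Dpp4+ cells, 0 of 5 genes passed by edgeR in any class, where 1.61% (Icam1+), 1.88% (Cd142+), 0.187% (endothelial-like) and 0.127% (SMC/pericyte-like) of all genes did, and at an unadjusted p under 0.05 there were 0, 0, 0 and 2. Over all genes those unadjusted counts were 1905 of 13698, 1470 of 12494, 1084 of 13361 and 793 of 13381 in the same order. DESeq2 was not run for that comparison.

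Several zinc importers other than Slc39a14 fell with age in the fibroblast classes. In Dpp4+ cells 5 of the 9 tested fell and 1 rose, with a median of -0.27 against 4.97e-04 over all genes, 16.5% of which passed in either direction. Among them were Slc39a11 (-0.45, SE 0.11, adjusted p = 0.0249) and Slc39a3 (-0.39, SE 0.08, adjusted p = 0.00740), and Slc39a6 was the gene that rose (0.21, SE 0.06, adjusted p = 0.0347). In Cd142+ cells 3 of 9 fell and 0 rose, including Slc39a13, which serves the secretory pathway of connective tissue cells (-0.65, SE 0.10, adjusted p = 8.05e-04), and Slc39a9 (-0.55, SE 0.15, adjusted p = 0.0312). In Icam1+ cells 2 of 9 fell, Slc39a13 (-0.35, SE 0.07, adjusted p = 0.0197) and Slc39a9 (-0.31, SE 0.08, adjusted p = 0.0416), all by edgeR. In endothelial-like cells 0 of 9 passed and in SMC/pericyte-like cells 0 of 7. Of the Slc30 exporters, Slc30a5 fell in Dpp4+ cells (-0.24, SE 0.06, adjusted p = 0.0256), and 0 passed in the other 4 classes.

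The remaining lists bear on other inputs to the metallothioneins. Of 12 genes of the acute phase and of interleukin-6 signalling, which is known to act on Mt1, Mt2 and Slc39a14, 5 of 10 tested rose with age in Cd142+ cells, 4 of 10 in Icam1+ cells, 2 of 10 in Dpp4+ cells, 1 of 9 in endothelial-like cells and 0 of 7 in SMC/pericyte-like cells, with 0 falling. Over all genes 12%, 11.9%, 16.5%, 0.746% and 0.152% passed in either direction in the same order, and these shares are also the background of the lists that follow. Of 12 glucocorticoid-responsive genes, 0 passed in Cd142+ cells, while in Dpp4+ cells 1 rose and 3 fell, among which Zbtb16 fell by 0.44 on the log2 scale (adjusted p = 5.67e-04, edgeR). In Icam1+ cells Errfi1 rose (0.35) and Zbtb16 fell (-0.23). Of 14 genes of dissociation and the immediate early response, 3 rose and 1 fell in Cd142+ cells and 2 rose and 3 fell in Dpp4+ cells. The largest rises of that list in Icam1+ cells were Hspb1 (0.94) and Hspa1a (0.91), with no fall that passed. Copper handling had 1 gene higher (Slc31a2, 0.22) and 1 lower (Slc31a1, -0.26) with age in Dpp4+ cells and 0 in the other classes. For iron handling, Hmox1 rose in Dpp4+ cells (0.36) while Steap4 fell in Cd142+ cells (-0.61) and Slc40a1, the iron exporter, in Icam1+ cells (-0.95).

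The second question is the response to cold. Mt1 in Cd142+ cells was higher after 3 days than at TN in both ages and was back near the TN level after 14 days: 5022, 6750 and 5065 CPM in Young and 5781, 8395 and 6144 CPM in Aged libraries. The log2 differences from TN were 0.48 after 3 days (SE 0.11) and 0.05 after 14 days (SE 0.11), with an adjusted p of 0.0489 (edgeR, F test over both terms). Leaving out 1 library kept the 3-day value of Mt1 between 0.41 and 0.54, and the call was lost in each such fit except that without Young 14D cold. Each of these fits leaves 1 library at a temperature, so no p is given for them. In Icam1+ cells Mt1 was also highest after 3 days in both ages, at 5470, 7267 and 5477 CPM (Young) and 4649, 8820 and 6313 CPM (Aged), and after 14 days it lay at the TN level in Young (log2 ratio 0.0017) but above it in Aged libraries (0.44). Its differences there were 0.69 (SE 0.16) and 0.22 (SE 0.16), which missed the threshold (adjusted p = 0.0854) and passed by DESeq2 (9.21e-05) and with thinned cells (0.0190). In Dpp4+ cells Mt1 was highest at TN in Young and after 3 days in Aged libraries, with differences of 0.12 and -0.19 (adjusted p = 0.276).

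Mt2 in endothelial-like cells was the other cold result that passed. It was at 155, 161 and 232 CPM in Young and 161, 186 and 431 CPM in Aged libraries at TN, 3D cold and 14D cold, so both 14D cold libraries lay above the other 4. The log2 differences from TN were 0.18 after 3 days (SE 0.18) and 1.06 after 14 days (SE 0.18), with an adjusted p of 0.0126 (edgeR). Without the shallow Aged 14D cold library the 14-day value of Mt2 was 0.65. It was 1.42 with the Young 14D cold library left out and 1.04 with the Aged 3D cold one left out, where the call was lost. Each of these fits leaves 1 library at a temperature, so no p is given for them. With cells thinned to 2000 UMIs the 14-day value of Mt2 was 0.74 (adjusted p = 0.267).

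Other RNA moved with the endothelial values. Fibroblast gate markers summed to 4074, 3553 and 5935 CPM in Young and 4117, 3416 and 13149 CPM in Aged endothelial-like cells, highest in the same 2 libraries as Mt2. Mt2 itself was at 861 to 2282 CPM in the 3 fibroblast classes. The part of fibroblast RNA in the Mt2 and Mt1 values of endothelial-like cells was not tested.

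**Figure D5:**
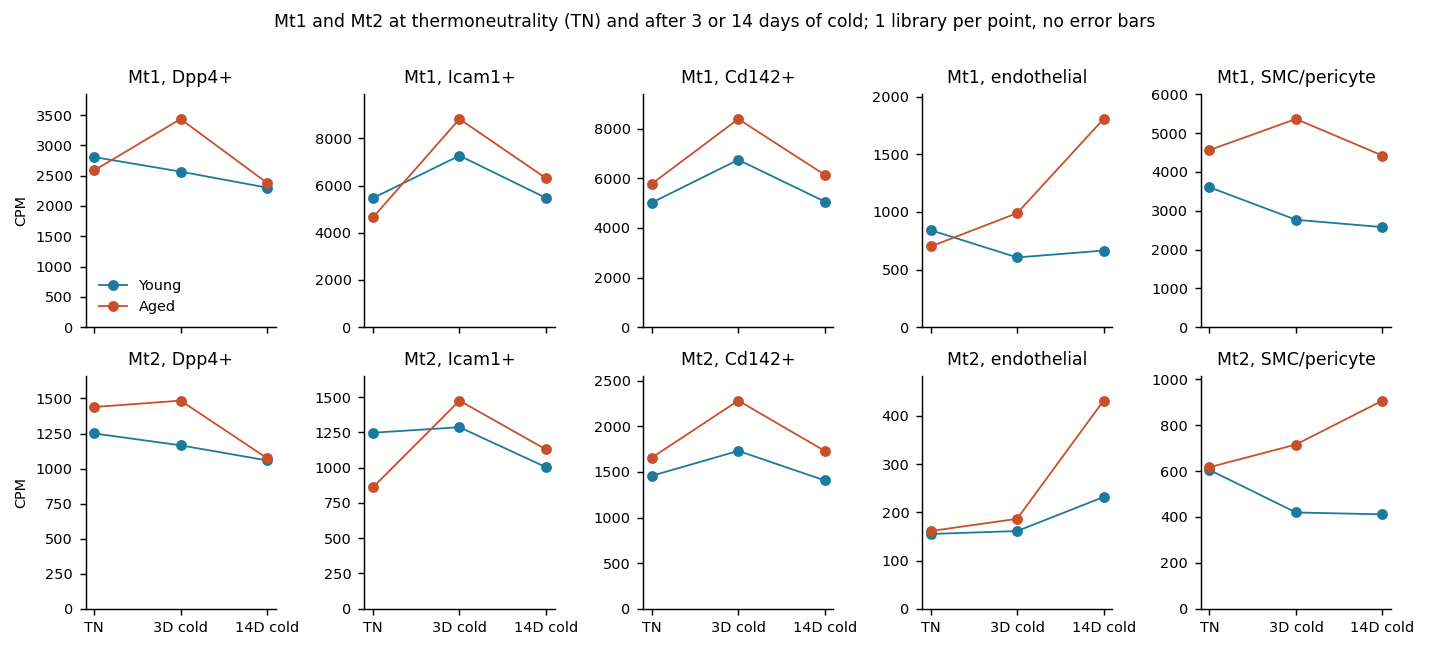
Mt1 (top) and Mt2 (bottom) in CPM (linear axes from 0) at TN, 3D cold and 14D cold in each class, with 1 point per library and a line per age, and no error bars because each age and temperature has 1 library. In Icam1+ and Cd142+ cells Mt1 peaked after 3 days in both ages, and in endothelial-like cells Mt2 was highest after 14 days.

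Slc30a1 in endothelial-like cells was at 61.9, 49.1 and 43.6 CPM (Young) and 69.1, 52.0 and 32.4 CPM (Aged), lower at each longer time in the cold in both ages. The log2 differences of Slc30a1 were -0.34 (SE 0.17) after 3 days and -0.76 (SE 0.17) after 14 days, and missed the threshold (adjusted p = 0.0863, edgeR). Slc39a14 in Dpp4+ cells was at 23.5, 29.5 and 27.8 CPM (Young) and 24.5, 31.2 and 29.8 CPM (Aged). Both TN libraries thus lay below all 4 cold ones, with log2 differences of 0.32 (SE 0.08) and 0.28 (SE 0.08) and an adjusted p of 0.0650. Mtf1 passed in no class, with adjusted p from 0.578 to 0.909.

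Across the 5 genes, 1 passed the temperature test in Cd142+ cells, where 2.46% of all genes tested did, and 1 in endothelial-like cells, where 3.39% did. By edgeR 0 of 5 passed over all cells (0.0635% of all genes), 0 of 5 in Dpp4+ cells (5.65%), 0 of 5 in Icam1+ cells (4.86%) and 0 of 3 tested in SMC/pericyte-like cells (0.444%). At an unadjusted p under 0.05 these counts of 0 became 2, 2, 1 and 0, and with DESeq2 1, 0, 1 and 0. Over all genes the unadjusted counts were 3089 of 15755 (all cells), 3196 of 13123 (Dpp4+), 3002 of 13057 (Icam1+) and 836 of 7887 (SMC/pericyte-like). Of the other zinc transporters Slc39a6 rose in endothelial-like cells (0.60 and 1.21, adjusted p = 0.0489), and 0 others of either family passed in any class. Zbtb16, of the glucocorticoid-responsive list, rose in Cd142+ cells (0.79 and 0.61), Icam1+ cells (0.73 and 0.52), Dpp4+ cells (0.51 and 0.49) and endothelial-like cells (0.83 and 0.92). In Cd142+ cells Zbtb16 was the 1 gene of its list to pass. The list did not move one way elsewhere. Ddit4 fell in Dpp4+ cells (-0.87 and -0.97) and Icam1+ cells (-1.03 and -0.47). In Dpp4+ cells Dusp1 fell too (-0.54 and -0.77), and Tsc22d3 was at 0.33 and -0.06. In Cd142+ cells 2 acute phase genes rose and 1 fell in the cold, and 0 of 14 dissociation genes passed.

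Whether the change in cold differed between the ages was tested with the 3D and 14D cold libraries of each age joined as 1 group against its TN library, in a fit of age, cold and their product that left 2 residual degrees of freedom. By edgeR 0 of 5 genes passed in Dpp4+, Icam1+, Cd142+ and endothelial-like cells, and 0 of 4 tested in SMC/pericyte-like cells, where 0.00% of all genes passed in each class. At an unadjusted p under 0.05 there were 0, 1, 0, 1 and 1 of the genes in that order, and with DESeq2 0 in each. Over all genes the unadjusted counts were 324 of 13557, 325 of 13610, 305 of 11725, 214 of 11038 and 294 of 8666. On simulated data, made for Cd142+ cells, this fit missed most of the genes given a change, more than any other fit tested. Its counts of 0 therefore do not show that the change in cold was alike in both ages. The members with an unadjusted p under 0.05 were Mt2 in Icam1+ cells, whose change was greater in Aged libraries by 0.78 on the log2 scale (SE 0.32, 95% interval 0.01 to 1.55), Mt1 in endothelial-like cells (1.43, SE 0.44, 0.38 to 2.48) and Mt2 in SMC/pericyte-like cells (1.02, SE 0.34, 0.25 to 1.79). A difference at a single time in the cold has no test, with 1 library per age and temperature. Mt1 in Cd142+ cells was higher after 3 days than at TN by a log2 ratio of 0.43 in Young and 0.54 in Aged libraries. In Icam1+ cells the same ratios of Mt1 were 0.41 and 0.92. In endothelial-like cells they went opposite ways, -0.48 in Young and 0.50 in Aged.

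Genes whose levels went with the metallothioneins over the 30 sums of class and library, each class centred on its own mean, were ranked among 6057 genes with a mean of at least 20 CPM. The nearest to Mt1 were Mt2 (Pearson's r 0.85), Cebpb (0.84), Cxcl1 (0.80), Gstt1 (0.79) and Myc (0.79). Within single classes their lowest r was 0.80, 0.81, 0.13, 0.73 and 0.73 in that order. The nearest to Mt2 were Myc (0.87), Slc4a4 (0.87), Emx2 (0.86), Mt1 (0.85) and Hk2 (0.85), with a lowest r within a class of 0.75, 0.51, 0.65, 0.80 and 0.64. Against Mt1 the other members had r of 0.23 (Mtf1), 0.24 (Slc30a1) and -0.17 (Slc39a14), and against Mt2 -0.04, 0.12 and 0.06. The sums of 1 library share its depth and handling, so these values describe the 30 sums and carry no p.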

How the data were processed

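Stromal vascular cells of iWAT were measured in 6 libraries. Per the methods and processing notes, the authors aligned reads to the mouse genome (mm10) with Cell Ranger and deposited UMI counts per gene and cell barcode, with no normalization. Intronic reads, ambient RNA removal and doublet calling are not given in the sources used here for these files. The 5 genes, the lists and the marker sets were chosen with earlier results of these data known.

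Barcodes with more than 200 genes were kept where log10 UMIs and log10 genes lay within 3 scaled median absolute deviations of the library median and the mitochondrial share lay no more than 3 above it, and a cell with markers of 2 lineages was left out as mixed, in place of a doublet caller. A lineage needed 3 of its 10 markers (fibroblasts 4 of 8), and fibroblast classes a margin of 0.3 between scaled marker means. There were 5264 of 48584 fibroblasts within 0.1 of that margin. UMIs were summed per library and class and tested with edgeR 4.0.16 (TMM, filterByExpr, quasi-likelihood test, Benjamini-Hochberg adjustment over all genes tested, R 4.3.3), with temperature as a term for age, age as a term for temperature and library as block for classes. The age fit had 2 residual degrees of freedom, the class fit 5, the fit of age effects between classes 4 and that of age by cold, added after seeing the data, 2. DESeq2 1.42.0, RLE factors, no filter on low counts, thinned cells, a fixed cell filter, other gates, fits without the second term and each library left out were alternatives. Fits with a library left out had fewer residual degrees of freedom, so a smaller p there is not stronger support. Single values were compared by exact permutation tests. All 5 genes are described in every class, list genes by counts with at most the 2 largest changes each way, and genes like Mt1 or Mt2 by the 5 highest correlations of log2(CPM + 1). The fits were tested on simulated data, where that of age by cold, in Cd142+ cells, recovered the smallest share of the genes given a change. A counting interval was used only for the Slc39a4 ratio, and precision otherwise rests on the spread between libraries.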

Additional observations from a re-analysis of the deposited data

Results flagged for a closer look

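In 5 of the 25 pairs of gene and class, both cold libraries of Young mice moved away from TN in the direction opposite to both cold libraries of Aged mice. Both cold libraries of an age are compared with the same TN library. How often this pattern occurs over all genes was not tested, so the count of pairs is a description only. In a fit of age, cold (both times together) and their product, chosen after seeing the data, 4 of these differences were tested and 0 passed (edgeR, adjusted p of at least 0.9998, unadjusted p 0.0151, 0.0151, 0.187 and 0.0912 for Mt1 in endothelial-like, Mt2 in SMC/pericyte-like, Slc30a1 in Dpp4+ and Slc39a14 in Icam1+ cells). As stated above for that fit, a count of 0 does not show that the ages changed alike. Slc30a1 in SMC/pericyte-like cells was too low for the fit, and its difference was not tested. Mt1 in endothelial-like cells had a mean log2 change in the cold of -0.41 in Young and 0.93 in Aged libraries, a difference of 1.34. The Aged changes were 0.50 after 3 days and 1.37 after 14 days, the latter in the shallow Aged 14D cold library. Fibroblast gate markers in endothelial-like cells summed to 13149 CPM in that library, against 3416 to 5935 CPM in the others, and their part was not tested. For Mt2 in SMC/pericyte-like cells the changes were -0.54 and 0.39, a difference of 0.93. Slc30a1 differed by 0.39 in Dpp4+ cells (-0.24 in Young, 0.14 in Aged) and by 0.65 in SMC/pericyte-like cells (-0.49 and 0.15), where it rested on 5 to 15 UMIs per library. Slc39a14 in Icam1+ cells differed by 0.31 (-0.15 and 0.17).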

How the results depend on the processing

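With 1 library per age and temperature, each call rests on a spread over few degrees of freedom, and the depth of the Aged 14D cold library, 5 to 15 Slc30a1 UMIs per SMC/pericyte-like library and the rebuilt gates limit the values. By replicate number no paired analysis was possible because each group has 1 library. The age fit paired the ages within temperature, and the class fit the classes within library. Log2 values are given with the adjusted p; the cause of each change was not tested.

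For age, Mt2 in Cd142+ cells did not pass with every other fibroblast marker as the gate (0.26, 0.255), thinned cells (0.29, 0.0578) or no temperature term (0.31, 0.265), and Mt1 there passed with thinned cells (0.30, 0.0375) or no filter on low counts (0.26, 0.0261). In SMC/pericyte-like cells Mt1 passed with a stricter gate (0.83, 0.00290), a fixed cell filter (0.64, 0.0143), DESeq2 (0.76, 0.0486) and no filter (0.77, 9.55e-07), and Mt2 with the stricter gate (0.83, 0.0132), fixed filter (0.73, 0.0399) and no filter (0.73, 0.00185). In endothelial-like cells no filter gave calls for Mt1 (0.68, 3.08e-11) and Mt2 (0.45, 0.00374), and DESeq2 turned Slc30a1 to -7.8e-04. Without a filter the change of Mt1 in cold in endothelial-like cells differed between ages (1.42, 7.06e-06). Against Dpp4+ cells the Mt1 age effect passed in SMC/pericyte-like cells with a stricter gate (0.78, 0.0482).

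For cold, Mt1 in Cd142+ cells did not pass after 3 days with a stricter gate (0.50, 0.0554), every other marker (0.44, 0.106), a fixed cell filter (0.45, 0.0956) or no age term (0.49, 0.986). Mt2 in endothelial-like cells did not after 14 days with thinned cells (0.74, 0.267) or no age term (1.10, 0.175). Mt1 passed in Icam1+ cells with thinned cells (0.70, 0.0190), DESeq2 (0.69, 9.21e-05) and no filter (0.68, 2.56e-04), and over all cells with DESeq2 (0.53, 8.84e-04). No filter also gave calls for Mt1 in Dpp4+ (-0.19, 0.0194) and endothelial-like cells (0.52, 5.12e-06), and for Mt2 in Dpp4+ (-0.31, 0.00970), Icam1+ (0.42, 0.0224) and Cd142+ cells (0.35, 0.0176). Between classes, plain totals turned Slc39a14 in endothelial-like (0.060) and Slc30a1 in SMC/pericyte-like cells (0.0080) and gave a call for Mt1 in the latter (0.50, 7.98e-04).

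Leaving out each library in turn gave these ranges. For age, Mt1 was at -0.083 to 0.19 in Dpp4+, -0.031 to 0.27 in Icam1+, 0.26 to 1.14 in endothelial-like and 0.61 to 0.96 in SMC/pericyte-like cells. Mt2 was at -0.12 to 0.19 over all cells, 0.064 to 0.27 in Dpp4+, -0.20 to 0.21 in Icam1+, 0.22 to 0.36 in Cd142+ and 0.44 to 1.05 in SMC/pericyte-like cells. Slc30a1 was at -0.11 to 0.17 in endothelial-like cells and Slc39a14 at -0.12 to 0.0044 over all cells. After 3 days of cold Mt1 was at 0.43 to 0.96 in Icam1+ and 0.41 to 0.54 in Cd142+ cells, and Mt2 at 0.056 to 0.83 in Icam1+ and -0.68 to 0.34 in SMC/pericyte-like cells. After 14 days Mt1 was at -0.12 to 1.24 in endothelial-like and -0.57 to 0.031 in SMC/pericyte-like cells, Mt2 at -0.49 to -0.15 in Dpp4+ and 0.65 to 1.42 in endothelial-like cells, and Slc30a1 at -0.34 to 0.024 in Dpp4+ cells. Against Dpp4+ cells Mt2 in Icam1+ cells was at -0.095 to 0.088 and Slc39a14 in Cd142+ cells at -0.055 to 0.026. A further 54 log2 values not printed, of which 0 passed, changed sign in 74 of 578 alternatives and passed in 0.

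The number of genes called moved more. For age it was 1576 over all cells (388 to 1885 under the alternatives that keep all libraries), 2169 in Dpp4+ (719 to 2799), 1555 in Icam1+ (190 to 2158), 1351 in Cd142+ (420 to 1684), 78 in endothelial-like (10 to 504) and 12 in SMC/pericyte-like cells (0 to 141). For temperature it was 10 (0 to 813), 741 (0 to 2240), 634 (0 to 1798), 277 (0 to 834), 354 (75 to 873) and 35 (0 to 598) in the same order. Counts of 0 came without the second term, or in SMC/pericyte-like cells with thinned cells, where 258 to 1090 genes had an unadjusted p under 0.05. Between classes Cd142+ cells had 6867, and 4464 with thinned cells. For the age effect the stricter gate gave 69 against 25 (endothelial-like) and 80 against 17 genes (SMC/pericyte-like). For the change in cold between ages it was 0 in each class (0 to 38 in Dpp4+, 96 in Icam1+, 27 in Cd142+, 44 in endothelial-like and 49 in SMC/pericyte-like cells, the upper counts without a filter), where 214 to 325 genes had an unadjusted p under 0.05.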

Other observations

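Cells outside the 5 classes also held metallothionein RNA. In 130 Schwann-like cells Mt1 was at 1791, 5169 and 2948 CPM in the Young TN, 3D cold and 14D cold libraries and at 5044, 6544 and 5306 CPM in the Aged ones, from 133 to 604 UMIs. In 298 immune cells that the CD45 depletion had left, Mt1 was at 954, 1057 and 268 CPM in Young and at 1095, 1939 and 2308 CPM in Aged libraries. Mt2 was at 390 to 1114 CPM in Schwann-like and at 84.8 to 372 CPM in immune cells. These cells were too few for a test.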
